A study of Arabidopsis thaliana with 4 samples.

Results

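The genes described here encode 2-oxoglutarate and Fe(II)-dependent oxygenases of Arabidopsis thaliana, and they were listed by family membership. The list held 60 loci, with AT3G60290 and LBO1 (AT3G21420) each named in its rule. A locus counted as measured where the platform's probe table tied at least 1 probe set to that gene and no other. This held for 45 of the 60. The table gave 13333 genes a probe set of their own, and it did not list 8730 of the 22746 tested probe sets. Below, a gene without a probe set of its own is one without such an entry in the table. Whether an unlisted probe set detects it is not known. The arrays came from whole seedlings, 14 days old, of the Col strain. Every seedling carried max3, a mutation in a carotenoid cleavage dioxygenase of strigolactone synthesis, so the mock seedlings were strigolactone-deficient too. One group, 2 arrays, had received the synthetic strigolactone GR24 at 1 µM for 90 min, and the other group, also 2 arrays, had received the solvent dimethyl sulfoxide for the same time. There was no wild type among the samples, so the comparison speaks only of max3 seedlings. Each group had replicate numbers 1 and 2. The series text describes 2 independent preparations, each started with its own seedlings. Each number was taken to mark 1 of them, which the sample labels do not state. With 2 arrays per group, the number of arrays limits the precision of every value below.

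Enzymes of this family use 2-oxoglutarate, molecular oxygen and a bound iron to hydroxylate, desaturate or otherwise oxidise small molecules, and in plants they make or inactivate many hormones and defence compounds. LBO1 acts late in strigolactone synthesis, on methyl carlactonoate. Other branches oxidise jasmonate, salicylic acid, gibberellins and auxin, or make coumarins, flavonoids and glucosinolates. Strigolactones themselves restrain shoot branching. The question put to the arrays was whether added strigolactone alters transcript levels in seedlings that lack their own.

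Values are the deposited log2 values, and a change is the GR24 value minus the mock value of the same replicate number, averaged over both numbers. The test was limma's linear model over all 22746 probe sets that are not controls, with the replicate number as a block, and a gene was called at an adjusted p under 0.05. Every value after ± is the moderated standard error from that model (n = 2 pairs), which rests on 7.62 prior degrees of freedom shared by all probe sets and 1 residual degree of freedom, and so mostly describes the spread of probe sets in general. Array medians of these log2 values were 7.03 to 7.06. The tissue label was checked with leaf and root genes. Of 15 listed leaf genes 2 were measured. RCA (Rubisco activase) averaged 13.5 and LHCB4.1 (a light-harvesting protein) 13.2 over the arrays. Of 17 listed root genes 7 were measured, with means between 4.87 and 10.35. The brightest were AT4G30170 (10.35) and AT5G17820 (8.82), and no background level was available for the dim ones. Signal was thus present for the leaf genes and for the brightest root genes. The mutated gene MAX3 had no probe set of its own and was not used here.

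AT3G60290 rose with GR24, and it was the 1 member of 45 that passed the test in either direction. Its enzyme has no stated substrate in the tables used. The gene had log2 values of 10.43 and 9.29 in GR24 seedlings of replicates 1 and 2, against 8.90 and 8.04 in mock seedlings. Both GR24 arrays lay above both mock arrays, with the lower GR24 array 0.39 above the higher mock array. The rise was 2.90-fold in replicate 1 and 2.38-fold in replicate 2, and the mean change was 1.39 ± 0.11 (adjusted p = 0.00371 in paired limma). Of all 22746 probe sets it had the fourth largest rise. In whole seedlings, more cells of a type and more RNA per cell cannot be told apart. The next largest mean rise among the members was 1.19-fold, for AT3G11180, which did not pass.

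Among all probe sets 0.303% were called, 0.145% as higher and 0.158% as lower, against 2.22% of the members, which is AT3G60290 alone. That gene was named in the list's rule with earlier results of these arrays known, so nothing is read from the difference between these shares. None of the 45 members was called lower (limma, 3 of those below 0 had an unadjusted p under 0.05). Without the replicate block AT3G60290 had an adjusted p of 1, and that fit called 0 probe sets (limma, 341 had an unadjusted p under 0.05). The difference between the group means of AT3G60290 was 0.82 without GR24 replicate 1, and it lay between 0.97 and 1.97 when each of the other arrays was left out in turn.

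**Figure D1:**
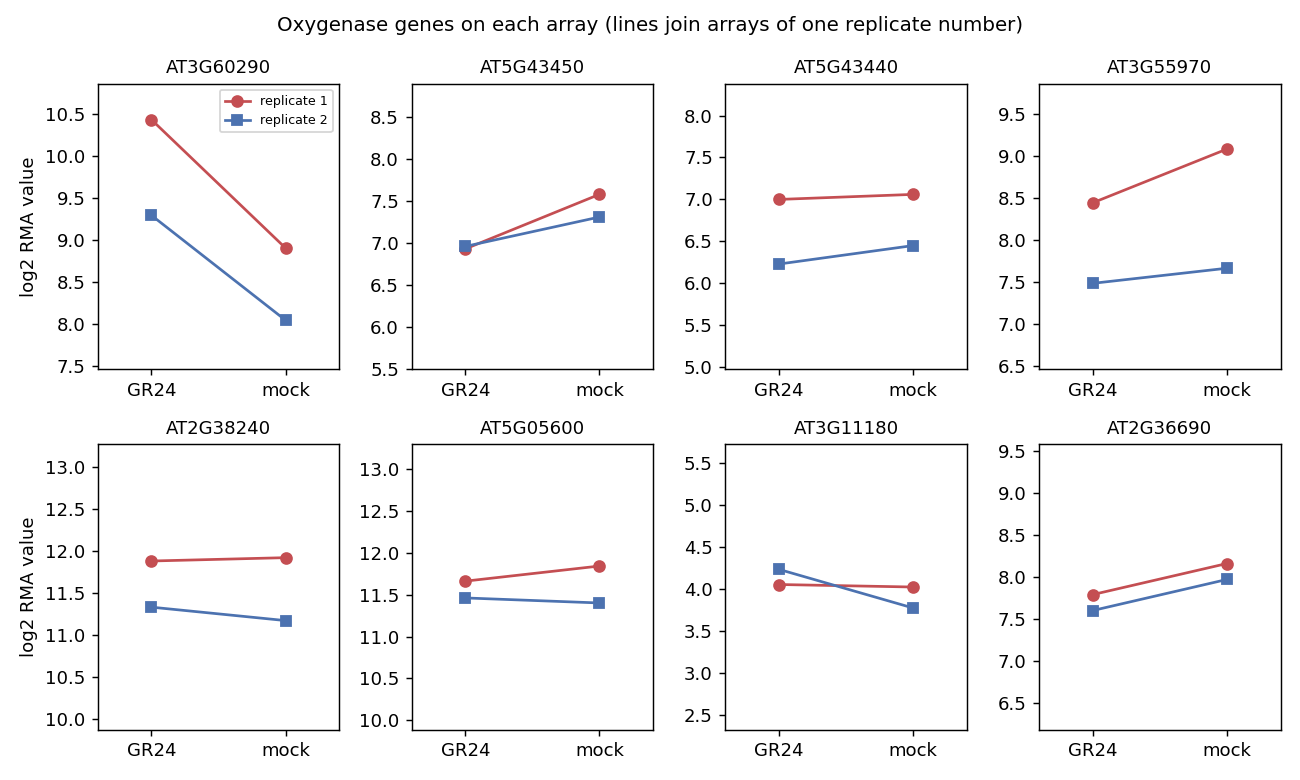
Log2 RMA values (y axis) of 8 oxygenase genes in GR24 and mock seedlings (x axis). Circles are replicate 1 and squares replicate 2, each point is 1 array, each line joins the arrays of 1 replicate number, and every panel spans the same height on the log2 scale. AT3G60290 is the gene whose lines both drop steeply toward mock, with GR24 at 10.43 and 9.29 and mock at 8.90 and 8.04.

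The other 44 measured members did not pass, and most of their changes were small. Their mean changes ran from -0.51 to 0.25 with a median of -0.057, beside a median of 0.013 over all probe sets. The median size of a change, sign set aside, was 0.125 for these 44 genes and 0.080 over all probe sets. Of the 45 members, 28 lay below 0 and 17 above it. Over the pairs, 20 of the 45 were below 0 in both, 8 above 0 in both and 17 had opposite signs, so 62.2% had the same sign in both pairs beside 52.0% of all probe sets. Both GR24 arrays lay below both mock arrays for 12 members (26.7%, beside 10.2% of all probe sets), and above them for 5 (11.1%, beside 12.9%). Across the 44 genes the changes of pair 1 and pair 2 correlated at r = 0.417, against 0.198 across all probe sets. This correlation is across genes, which are not independent, and the genes of a pair share the same 2 arrays.

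**Figure D2:**
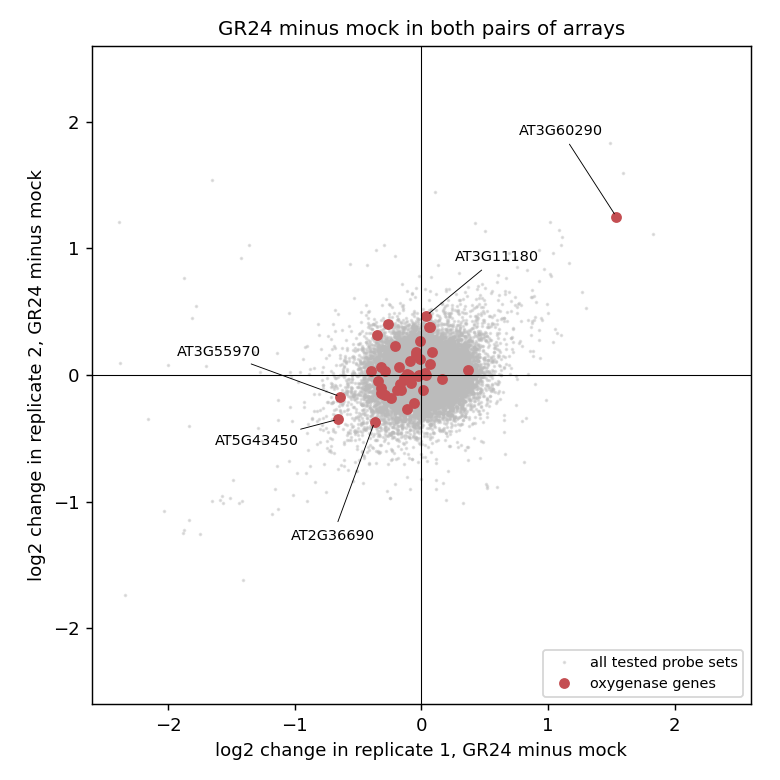
Log2 change, GR24 minus mock, in replicate 1 (x axis) and in replicate 2 (y axis). Grey points are all 22746 tested probe sets and red points the 45 oxygenase genes. AT3G60290 stands at 1.54 and 1.25, and the other members lie within 0.66 of 0 on both axes.

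For strigolactone synthesis itself little could be read. LBO1 had no probe set of its own in the probe table and is not analysed here. Of 6 other synthesis genes listed, 2 were measured. AT4G36470, the methyltransferase that makes methyl carlactonoate, the substrate of LBO1, had a change of -0.02 (adjusted p = 0.996). AT1G64680, a gene similar to D27, the carotenoid isomerase at the start of the pathway, had one of -0.22 (adjusted p = 0.706). Neither passed in paired limma. None of 9 listed perception and response genes had a probe set of its own.

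The jasmonate oxidases hydroxylate jasmonic acid and thereby lower the pool of active hormone. All 4 were measured and 0 passed. JRG21 (AT3G55970) had log2 values of 8.44 and 7.48 in GR24 seedlings of replicates 1 and 2, against 9.08 and 7.66 in mock seedlings. It was lower with GR24 in each pair, by 0.64 and 0.17, but the groups overlapped, because the replicates of 1 treatment differed by more than the treatments did. Its mean change was -0.40 ± 0.13 (adjusted p = 0.41 in paired limma).

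AT3G11180, another jasmonate oxidase, had 4.05 and 4.23 in GR24 seedlings, against 4.02 and 3.77 in mock seedlings. Its groups did not overlap, but nearly all of the change of 0.25 ± 0.12 came from pair 2 (0.47, against 0.04 in pair 1). AT2G38240 had 11.88 and 11.33 in GR24 seedlings and 11.92 and 11.17 in mock seedlings, with a change of 0.06 ± 0.11 and opposite signs in the pairs. AT5G05600 had 11.66 and 11.46 in GR24 seedlings and 11.84 and 11.40 in mock seedlings, a change of -0.06 ± 0.11, again with opposite signs. The 4 changes had both signs and a median of -0.001. Of 27 listed genes of jasmonate synthesis and response outside the family, only JMT, which methylates jasmonic acid, was measured (change 0.16, adjusted p = 0.872 in paired limma).

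Coumarin synthesis starts with feruloyl-CoA 6'-hydroxylases, which lead to scopoletin, and a scopoletin 8-hydroxylase then yields fraxetin, a compound roots release when iron is short. All 3 genes were measured and 0 passed. F6'H1 (AT3G13610) had 10.48 and 9.90 in GR24 seedlings, against 10.57 and 9.96 in mock seedlings, with changes of -0.08 and -0.06 in the pairs. F6'H2 (AT1G55290) had 6.11 and 5.70 in GR24 seedlings, against 5.74 and 5.66 in mock seedlings. Its change of 0.20 ± 0.11 came mostly from pair 1. The scopoletin 8-hydroxylase gene AT3G12900 had a change of 0.13 ± 0.11, with -0.01 in pair 1 and 0.27 in pair 2. Of 17 listed genes of iron shortage and coumarin export or transport, 5 were measured and 0 passed (limma, 0 had an unadjusted p under 0.05), with changes from -0.12 to 0.18.

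The largest branch consists of homologs of ACC oxidase, the enzyme that forms ethylene. The homologs were named for sequence likeness, and 14 of them were measured. None passed, with changes from -0.51 to 0.22 and a median of -0.074. Of the 14, 11 (78.6%) lay below 0, beside 45.3% of all probe sets, and 8 (57.1%) were below 0 in both pairs, beside 23.3% of all probe sets. Over all 45 members these shares were 62.2% and 44.4%, and differences between branches were not tested. AT5G43450 had the lowest change of all members. Its values were 6.93 and 6.96 in GR24 seedlings, against 7.58 and 7.31 in mock seedlings. Both GR24 arrays lay below both mock arrays, and the change was -0.51 ± 0.11 (adjusted p = 0.164 in paired limma). With limma's default prior, under which 1.24% of all probe sets were called, its adjusted p was 0.0303, and it was the 1 member besides AT3G60290 called in that fit.

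AT5G59540 had 10.33 and 10.38 in GR24 seedlings and 10.65 and 10.52 in mock seedlings, without overlap and with a change of -0.23 ± 0.10. AT1G06640 had 11.64 and 11.56 in GR24 seedlings and 11.57 and 11.18 in mock seedlings, a change of 0.22 ± 0.11 with overlapping groups. GSL-OH (AT2G25450), the oxygenase that hydroxylates an alkenyl glucosinolate, had a change of -0.08 ± 0.10. The gene 2A6 (AT1G03410) had 2 probe sets, with changes of -0.02 for the one used and 0.05 for the other. ACO5 (AT1G77330), an ACC oxidase, and AT1G06645 had no probe set of their own.

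Genes similar to the glucosinolate oxygenases AOP2 and AOP3 gave dim signals, with means from 3.76 to 4.82. No detection calls were available, so no background level can be set for them. All 6 listed were measured and 0 passed. AT1G28030 had 4.71 and 4.71 in GR24 seedlings and 5.01 and 4.86 in mock seedlings (change -0.22 ± 0.10). AT1G52800 had 3.69 and 3.61 in GR24 seedlings, against 4.0 and 3.76 in mock seedlings (change -0.23 ± 0.10). In both genes the groups did not overlap, as also in AT1G52810 (change -0.14) and in the opposite direction in AT1G80320 (change 0.08, from 4.35 and 4.39 in GR24 seedlings and 4.27 and 4.29 in mock seedlings).

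Of the branch around SRG1, a gene first found through leaf senescence, AT1G78550 and AT1G17010 were measured and 0 passed. AT1G78550 had 7.22 and 6.72 in GR24 seedlings, against 7.26 and 6.54 in mock seedlings. AT1G17010 was among the dimmest members, with 3.71 and 3.83 in GR24 seedlings and 3.82 and 3.82 in mock seedlings. Their changes were 0.07 ± 0.11 and -0.05 ± 0.10, each with opposite signs in the pairs. SRG1 itself (AT1G17020) had no probe set of its own.

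The other 15 measured members have varied or unknown substrates, and 0 passed, with changes from -0.37 to 0.22. AT2G36690, known as GIM2 for its part in germination under abscisic acid, had 7.79 and 7.60 in GR24 seedlings, against 8.16 and 7.97 in mock seedlings. Its change was the same in each pair, -0.37 and -0.37, and the groups did not overlap (adjusted p = 0.284 in paired limma). AT5G20400 had 7.91 and 7.84 in GR24 seedlings and 8.23 and 7.93 in mock seedlings, also without overlap (change -0.21 ± 0.11). AT3G19010 was lower with GR24 in each pair by a similar amount, with 9.68 and 9.33 in GR24 seedlings and 9.92 and 9.51 in mock seedlings, but its groups overlapped (change -0.21 ± 0.10).

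Upward, AT3G46480 had 4.53 and 4.71 in GR24 seedlings and 4.47 and 4.34 in mock seedlings (change 0.22 ± 0.11). AT3G49630 had 4.33 and 4.45 in GR24 seedlings and 4.25 and 4.26 in mock seedlings (change 0.13 ± 0.10). In both, the GR24 arrays lay above the mock arrays. AT1G35190 hardly differed, with 9.33 and 9.46 in GR24 seedlings and 9.30 and 9.44 in mock seedlings. AT2G44800, with a dim signal, had 3.54 and 3.95 in GR24 seedlings and 3.80 and 3.55 in mock seedlings, with changes of -0.26 and 0.40 in the pairs. The remaining 8 genes of these 15 had changes between -0.19 and 0.06. AT3G47190, DIN11 (AT3G49620), AT4G23340 and KUOX1 (AT5G07480) had no probe set of their own.

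**Figure D3:**
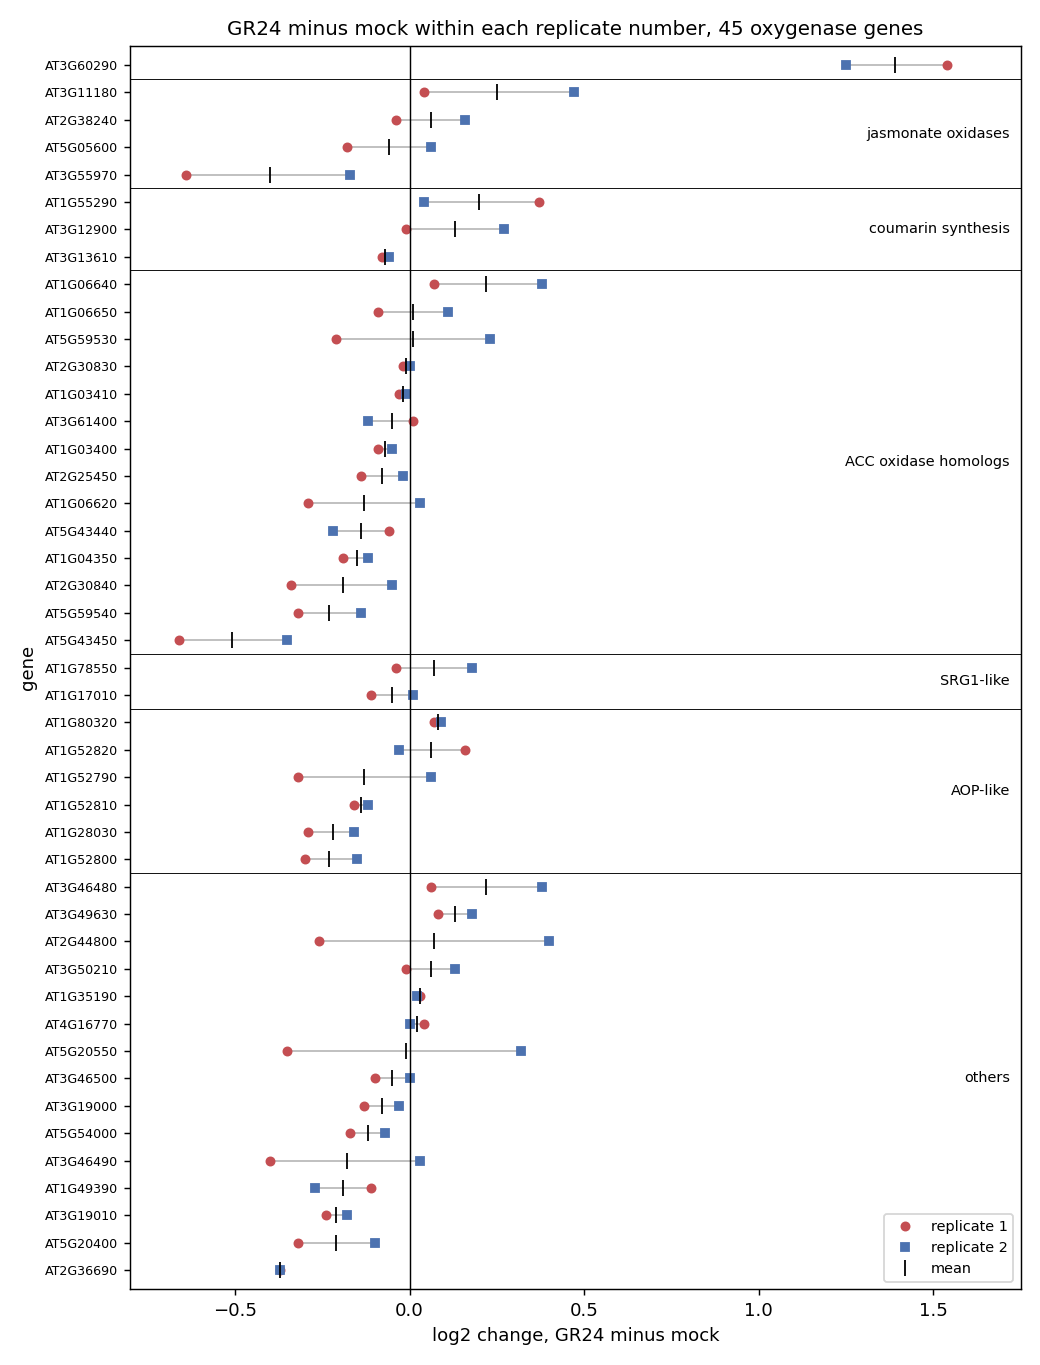
Log2 change, GR24 minus mock (x axis), of each of the 45 measured oxygenase genes (rows, grouped by branch and ordered by mean change). Red circles are replicate 1, blue squares replicate 2 and black ticks their mean. AT3G60290 lies at 1.54 and 1.25, and all other means lie between -0.51 and 0.25.

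Outside the 60 loci, 31 oxygenase genes of flavonoid, gibberellin, ethylene, auxin and glucosinolate metabolism were listed, of which 7 were measured and 0 passed (limma, 0 had an unadjusted p under 0.05), with changes from -0.17 to 0.13. DAO1 (AT1G14130) and DAO2 (AT1G14120), which oxidise the auxin indole-3-acetic acid, had changes of -0.13 (adjusted p = 0.872) and -0.06 (adjusted p = 0.973), and ACO3 (AT1G12010), an ACC oxidase, had 0.13 (adjusted p = 0.902), all in paired limma. DMR6 (AT5G24530), DLO1 (AT4G10500) and DLO2 (AT4G10490), the salicylic acid hydroxylases, had no probe set of their own, nor had the gibberellin 20-oxidases GA20OX4 (AT1G60980) and GA20OX5 (AT1G44090). Of 16 listed genes of salicylic acid synthesis and response, only AT4G26120 was measured. It is a relative of the salicylic acid receptor gene NPR1, with changes of 0.79 and 0.55 in the pairs and a mean of 0.67 (adjusted p = 0.056 in paired limma), which does not pass. With limma's default prior, under which 1.24% of all probe sets were called, its adjusted p was 0.00276.

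Many of these genes lie side by side in the genome. Listed genes with no other listed gene between them on a chromosome were counted as neighbours where at most 1 other protein-coding gene lay between them in the RefSeq annotation of TAIR10.1. This gave 17 neighbouring pairs, 11 of them with both genes measured. In 7 of these 11 both mean changes had the same sign and in 4 opposite signs. The 11 pairs held 19 genes, some of them in more than 1 pair. Since 28 of the 45 members lay below 0, unrelated genes would often share a sign too, and nothing is read from the count. The change was -0.51 for AT5G43450 and -0.14 for its neighbour AT5G43440, which had 7.0 and 6.23 in GR24 seedlings and 7.06 and 6.45 in mock seedlings. This difference between the neighbours was not tested. The 3 adjacent genes AT1G52790, AT1G52800 and AT1G52810 had changes of -0.13, -0.23 and -0.14, and the fourth of the row, AT1G52820, had 0.06. For AT3G46480 and AT3G46490 the changes were 0.22 and -0.18. Another neighbouring pair, AT4G25300 and AT4G25310, shared 1 probe set, so neither had a value of its own. Near-identical neighbours can share signal on such arrays, and how far they did was not tested.

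More oxygenase genes passed the test between replicate numbers than the test between treatments. The same held over all probe sets, with 3806 called between replicate numbers and 69 between treatments. With treatment as a block, 10 of the 45 members differed between replicate 2 and replicate 1 (22.2%, beside 16.7% of all probe sets). Of these, 9 were lower in replicate 2, where 8.59% of all probe sets were called lower, and 1 was higher, where 8.14% were called higher. The largest differences were those of JRG21, with -1.19 ± 0.13 (adjusted p = 0.00126 in paired limma), and AT3G60290, with -1.0 ± 0.11 (adjusted p = 0.00151). AT3G60290 was 1.15 higher in GR24 seedlings of replicate 1 than of replicate 2, and 0.86 higher in mock seedlings of replicate 1 than of replicate 2.

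AT5G43440 (-0.69), AT2G38240 (-0.65), AT1G78550 (-0.61), F6'H1 (-0.59), AT3G46490 (-0.53), AT2G30840 (-0.45) and AT3G19010 (-0.38) were the other members lower in replicate 2, and AT1G06620 (0.48) was the 1 that was higher. For 26 of the 45 members (57.8%, beside 68.4% of all probe sets) the difference between replicate numbers was larger than the change with GR24. Of the 7 measured root genes, 5 (71.4%, beside 16.7% of all probe sets) differed between replicate numbers. In replicate 2, 4 of them were higher and 1 was lower, with differences from -0.54 to 0.96 over the 7 root genes. Of the 2 leaf genes 0 passed (0.11 and 0.30). Their part in the differences of the oxygenase genes was not tested. Seedlings and array handling that went with a replicate number cannot be told apart.

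**Figure D4:**
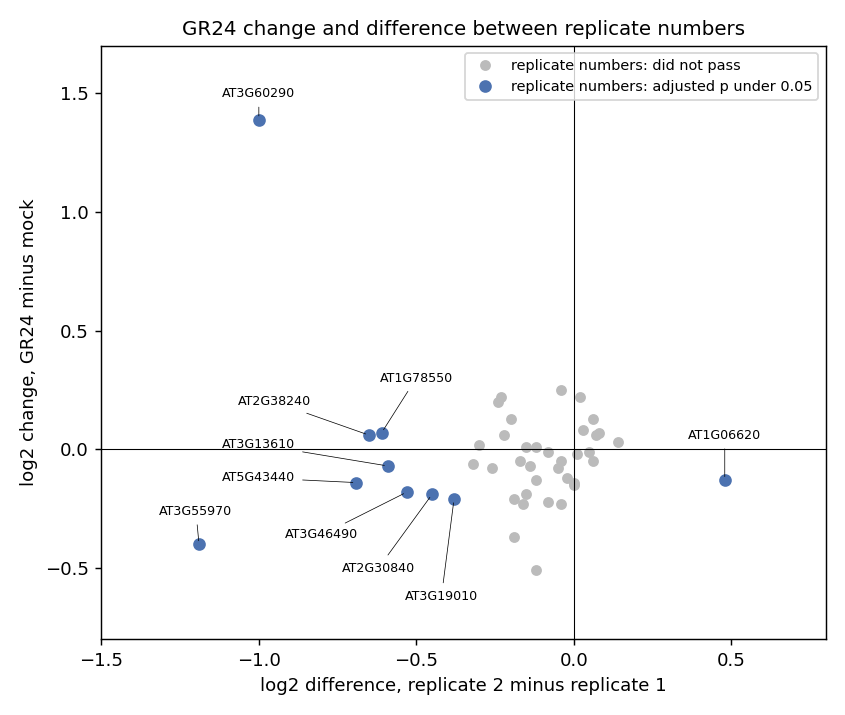
Log2 change with GR24 (y axis, GR24 minus mock) against the log2 difference between replicate numbers (x axis, replicate 2 minus replicate 1) for the 45 oxygenase genes. Blue points passed the test between replicate numbers at an adjusted p under 0.05, and grey points did not. AT3G60290, at -1.0 and 1.39, is far above the other 9 blue points, whose GR24 changes lie between -0.40 and 0.07.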

How the data were processed

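RNA of 4 seedling samples was labelled with biotin and hybridised to single-channel oligonucleotide arrays. Per the submitters' processing notes the authors computed the log2 values with RMA. Its version is not given in the sources used here. The method corrects background, equalises the distributions of the arrays and summarises the probes of a set, and differences between dim probe sets can be noisy afterwards. Of 22810 probe sets, 64 controls were left out and the others were tested without a filter. Gene names came from the platform's probe table, updated by gene identifier through RefSeq (13513 probe sets with 1 gene, 503 with several, 8730 not listed). A member with several probe sets was represented by the one with the highest mean.

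Tests were two-sided, in R 4.3.3 with limma 3.58.1, with Benjamini-Hochberg adjustment over all 22746 probe sets. A maximum-likelihood fit gave the prior variance (prior SD 0.107), a stricter choice than limma's default prior (18.3 prior degrees of freedom). The script was tested on data simulated with that same prior and block, so the test bears on the code and not on either choice. Replicate numbers 1 and 2 occur in each treatment, and the series text describes 2 separate seedling preparations, so the number served as a block. Deviations from the group means of same-numbered arrays correlated at 0.712. P-values measure only the spread between these arrays, and for each gene they rest mostly on the spread of probe sets in general. The members, lists, prior and block were chosen with earlier results of these data known. Members named with every array's value were AT3G60290, any called member, up to 8 with the largest rise and up to 8 with the largest drop among those with 1 sign in both pairs, the 6 with the largest difference between replicate numbers, and the 3 brightest and 3 dimmest. A few other genes were named for their role or as neighbours. Alternatives were the default prior, no block, other scalings, an offset, a filter on dim probe sets, a looser threshold, averaged probe sets and arrays left out. Signals of different probe sets are not comparable as transcript amounts.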

Additional observations from a re-analysis of the deposited data

How the results depend on the processing

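The call of AT3G60290 held under the default prior, repeated quantile normalization, median centring, an offset of 16, the filter on dim probe sets, averaged probe sets and an adjusted p under 0.1. Each of these called 1 member except the default prior, which called 2. Not all of them could have removed the call. The looser threshold could not, and the default prior was the less strict choice. AT3G60290 has 1 probe set and is not dim, so the filter and the averaging left its change at 1.394. Only the 2 scalings and the offset altered its values. Without the replicate block limma called 0 members (3 had an unadjusted p under 0.05), so that leaving single arrays out of it had no call to test, with 0 to 0 (a lone array was assumed to vary like the other group). Over all probe sets the 69 calls became 281 with the default prior, 24 with the offset and 0 without the block (341 had an unadjusted p under 0.05). Of the 25 measured genes in the other lists limma called 0 (2 had an unadjusted p under 0.05). The default prior called 1 and an adjusted p under 0.1 also 1, in each case AT4G26120. Between replicate numbers, the settings that kept the block and all arrays called 10 members, except the looser threshold with 12. Among 23 members with every array's value given, AT1G35190 had the opposite sign after repeated quantile normalization (-0.001), and with arrays or a pair left out 10 had it at least once. Their changes then ranged from -0.112 to 0.006 for AT1G17010, -0.043 to 0.099 for AT1G35190, -0.0004 to 0.409 for AT1G55290, -0.293 to 0.433 for AT1G78550, -0.319 to 0.433 for AT2G38240, -0.259 to 0.40 for AT2G44800, -0.375 to 0.229 for AT3G13610, -1.115 to 0.306 for AT3G55970, -0.275 to 0.158 for AT5G05600 and -0.524 to 0.246 for AT5G43440. With 1 array left out, the value was a difference between group means without the block. It therefore took in part of the difference between replicate numbers and was not a change within them. For AT3G55970 the single pairs gave -0.637 and -0.172, both below 0. Other causes of these differences were not tested. With 2 arrays per group, absence of a call does not show absence of a change. No background level was available for dim probe sets.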
